A study of Avicennia germinans with 18 samples.

Results

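The 150 transcripts described here had lower levels in leaves of arid-forest seedlings than in leaves of humid-forest seedlings of Avicennia germinans, a mangrove tree that secretes salt through its leaves. They were chosen by their leaf values, out of 28660 transcripts that the rule could take and 47821 in the whole table. A level is given in CPM (counts per M reads), the read count of a transcript scaled to the total of its library. The rule took transcripts with the prefix Ag_ and ranked them by the ratio of the lowest of the 3 humid leaves to the highest of the 3 arid leaves, after 0.5 CPM was added to both. It left out 1194 transcripts whose arid libraries were all below all humid ones in both stem and root, and 8 of those would otherwise have scored at or above the last member. The difference between arid and humid leaves is thus set by the choice of members, and it is given as a description with no test. Members are called by their place in that ranking.

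The study compared an arid with a humid forest, which differ in freshwater supply, salinity, light and temperature. In each forest 3 seedlings had germinated and grown in the field. All 6 seedlings were then moved to 3 L pots of mangrove soil and kept shaded and well watered for 72 hours, so both forests shared that treatment. Leaf, stem and root of each seedling were sequenced, which gave 3 libraries in each of the groups arid leaf, humid leaf, arid stem, humid stem, arid root and humid root. Libraries are numbered by seedling, and number 1 of the arid forest is another seedling than number 1 of the humid forest. The seedlings were wild plants of unstated age and genotype, and the forest of origin and the conditions of growth there cannot be told apart.

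Mangroves take up saline water, and species of Avicennia hold back part of the salt at the root and release part of the rest through salt glands in the leaf. Leaves carry out photosynthesis and lose most of the water of the plant, the stem conducts water upward, and the root is the organ in contact with soil salt. Limited freshwater is known to change gene expression in all of these organs in plants. The deposited identifiers come without gene names, so no role can be given for a member. At most 2 identifiers in each direction are printed per comparison.

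Libraries held 3.07 to 23.7 M reads (M for mega), and the 18 libraries summed to 205.9 M reads. Where a transcript had no read, its level could still have been as high as 3 counts, which was 0.127 to 0.979 CPM depending on the library. Such limits account for counting error alone, because reads amplified by PCR do not each stand for a separate molecule. RNA was taken from whole organs, so fewer cells of a type and less RNA per cell cannot be told apart.

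Some libraries stood apart from others of their group in the members, and results that rest on them are given with and without them. The library labelled arid root 1 lay above both other arid roots in 110 of 150 members. With 0.5 CPM added, its ratio to the higher of them had a median of 2.33 and quartiles of 0.938 and 5.99. Across the members on the scale of log2(CPM + 0.5), its levels were most like those of humid leaf 1, with Pearson's r = 0.87 and Spearman's rho = 0.87 over 150 transcripts. The values were 0.76 and 0.74 for humid leaf 3, 0.65 and 0.59 for arid leaf 1 of the same seedling, and 0.55 and 0.52 for arid root 2. These correlations are across transcripts that the rule selected on leaf values, and transcripts are not independent replicates. Levels in arid root 1 also bore on the choice, since the rule left out transcripts lower in both stem and root.

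A closer view came from 12 members that reached at least 10 CPM in humid leaf 1 and stayed under 1 part in 10 of it in all libraries other than arid root 1 and the humid leaves. The level in arid root 1 did not enter these criteria. It did enter the choice of members, because the rule left out transcripts lower in both stem and root. The members at places 8, 40 and 81 met the criteria, and without arid root 1 the rule would have left them out. The selection was thus not independent of arid root 1. In arid root 1 these 12 members stood at a median of 23.3% of their level in humid leaf 1, with quartiles of 22.2% and 25% and a range from 20.7% to 35.7%. Against humid leaf 2 the same 12 ranged from 25.6% to 366%, and against humid leaf 3 from 95.5% to 536%. Arid leaf 1, from the same seedling as arid root 1, held a median of 1.13% of the humid leaf 1 level of these members. Arid roots 2 and 3 held 0.338% and 0%. The ratio of arid root 1 to humid leaf 1 was thus nearly the same from member to member, while its ratio to the other humid leaves was not. The same selection among transcripts that were not members gave 8 transcripts with a median of 25.1% of humid leaf 1 and a range from 6.67% to 35.9%, wider than that of the members. What arid root 1 shares with humid leaf 1 was not tested.

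**Figure D1:**
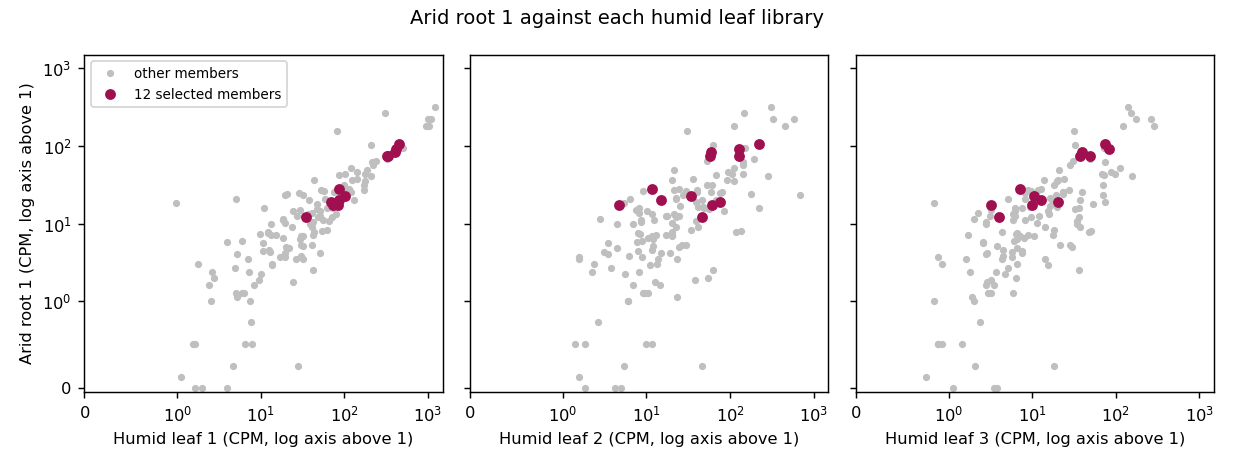
Level of each member in arid root 1 (vertical axis, CPM, log axis above 1) against its level in humid leaf 1, humid leaf 2 and humid leaf 3 (horizontal axes, CPM, log axes above 1). Each point is 1 of the 150 members; the 12 dark points are members low in all libraries other than arid root 1 and the humid leaves, and they lie on a narrow line only against humid leaf 1, at 20.7% to 35.7% of its level.

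Arid root 1 also carried more of the transcripts typical of leaves. Transcripts typical of leaves were set on the humid libraries as those averaging 50 CPM or more in leaf and 20-fold or more below that in root. Of these 235 transcripts, 5 of which are members, the median level as a share of the leaf of the same seedling was 51.3% for arid root 1, 1.81% for arid root 2 and 13.1% for arid root 3. They took up 3.03%, 0.213% and 1.31% of the reads of arid roots 1, 2 and 3, and 0.0669% to 0.0811% of the reads of the humid roots. Among the stems, arid stem 2 lay above both other arid stems in 84 of 150 members. Its ratio to the higher of them, with 0.5 CPM added, had a median of 1.25 and quartiles of 0.658 and 4.18. For arid root 1 and arid stem 2 alike, the share of all transcripts above both other libraries is not given here.

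In leaves, the members took up 784, 695 and 514 CPM in the 3 arid libraries, against 15270, 8241 and 3993 CPM in the 3 humid libraries. Their summed level averaged 664 ± 138 CPM in arid leaves and 9169 ± 5698 CPM in humid leaves (SD, n = 3 each). Arid leaves were alike in this sum, whereas the humid leaves spread widely, with humid leaf 1 highest and humid leaf 3 lowest. The median member had a mean of 1.29 CPM in arid leaves and 26.2 CPM in humid leaves, with means that reached 84.5 CPM in arid leaves and 612 CPM in humid leaves. All arid leaves lay below all humid leaves in all members, as the rule requires, and the same held for 7.7% of the 28660 transcripts the rule could take.

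The score ran from 5.01 at place 1, a ratio of 32.3, to 1.30 at place 150, a ratio of 2.46. Just inside the edge, place 150 had at most 3.37 CPM in arid leaves and at least 9.03 CPM in humid leaves. Just outside it, the next transcript had at most 31.95 CPM in arid leaves and at least 79.1 CPM in humid leaves, a ratio of 2.45. The list therefore ends at no gap in the values. The first places combined lower arid with higher humid values: the median member mean was 0.795 CPM in arid leaves and 37.8 CPM in humid leaves for places 1 to 50. For places 101 to 150 it was 1.86 CPM in arid leaves and 16.4 CPM in humid leaves.

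Ag_43846, at place 1, had 0.673, 0 and 0 CPM in arid leaves, against 40.5, 41.0 and 37.4 CPM in humid leaves. The 3 humid leaves were nearly equal, and a total of 5 reads was found in the arid ones. Ag_41974, at place 2, had 6.33, 1.91 and 0 CPM in arid leaves, against 205, 284 and 156 CPM in humid leaves. The same libraries ranked high and low in both transcripts outside the leaf as well. Ag_43846 had 9.02 CPM in arid root 1 and 0 CPM in arid roots 2 and 3, while Ag_41974 had 41.4 CPM in arid root 1 and 0 CPM in the other arid roots. In stems, Ag_41974 had 0.140, 0 and 0.240 CPM in the arid libraries, against 12.6, 7.63 and 23.4 CPM in the humid ones. The arid and humid stems did not overlap. Over the 18 libraries the pair correlated with r = 0.97 on the log2(CPM + 0.5) scale. In the 8 libraries where both had at least 10 reads, the ratio of Ag_41974 to Ag_43846 was between 3.29 and 6.93, with a median of 4.98. The deposited files do not show whether the 2 identifiers are separate genes or pieces of 1 transcript.

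The member with the highest mean in humid leaves, at place 62, had 40.5, 69.4 and 62.5 CPM in arid leaves, against 991, 583 and 262 CPM in humid leaves. The next, at place 139, had 88.8, 112 and 53.1 CPM in arid leaves, against 950, 459 and 287 CPM in humid leaves. Both kept clear levels in arid leaves, and in both humid leaf 1 was the highest and humid leaf 3 the lowest of the humid leaves. In arid stems place 62 had 0.350, 94.2 and 2.52 CPM, so arid stem 2 carried nearly all of its reads there, against 18.5, 15 and 5.53 CPM in humid stems.

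At the other end, 13 members had no read in any arid leaf, while every member had reads in every humid leaf. Set against the limit of 3 counts over the arid leaves together, 0.0751 CPM, the member at place 3 was at least 481-fold lower in arid leaves, with 36.1 CPM over the pooled humid leaves. Among the 13, this bound was smallest at place 143, at least 13-fold, with 0.976 CPM over the pooled humid leaves. A further 43 members had no read in 1 or 2 arid leaves, and 94 had reads in all 3. Within the arid leaves, the highest library was arid leaf 1 for 78 members, arid leaf 2 for 42 and arid leaf 3 for 17.

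Most members were uneven among the humid leaves. Humid leaf 1 was the highest of the 3 for 104 members, humid leaf 2 for 43 and humid leaf 3 for 3, and humid leaf 3 was the lowest for 123. The ratio of humid leaf 1 to humid leaf 3, with 0.5 CPM added to both, had a median of 2.85 over the members, with quartiles of 1.51 and 6.20. Over all 20660 Ag_ transcripts with 1 CPM or more in every humid leaf, this median was 0.916. The ratio was at least 4 for 58 members and under 2 for 53, so the list holds both transcripts that were steady among humid leaves and transcripts dominated by humid leaf 1. The rule asks for the lowest humid leaf to exceed the highest arid leaf, which selects for a large gap and not for even humid leaves.

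**Figure D2:**
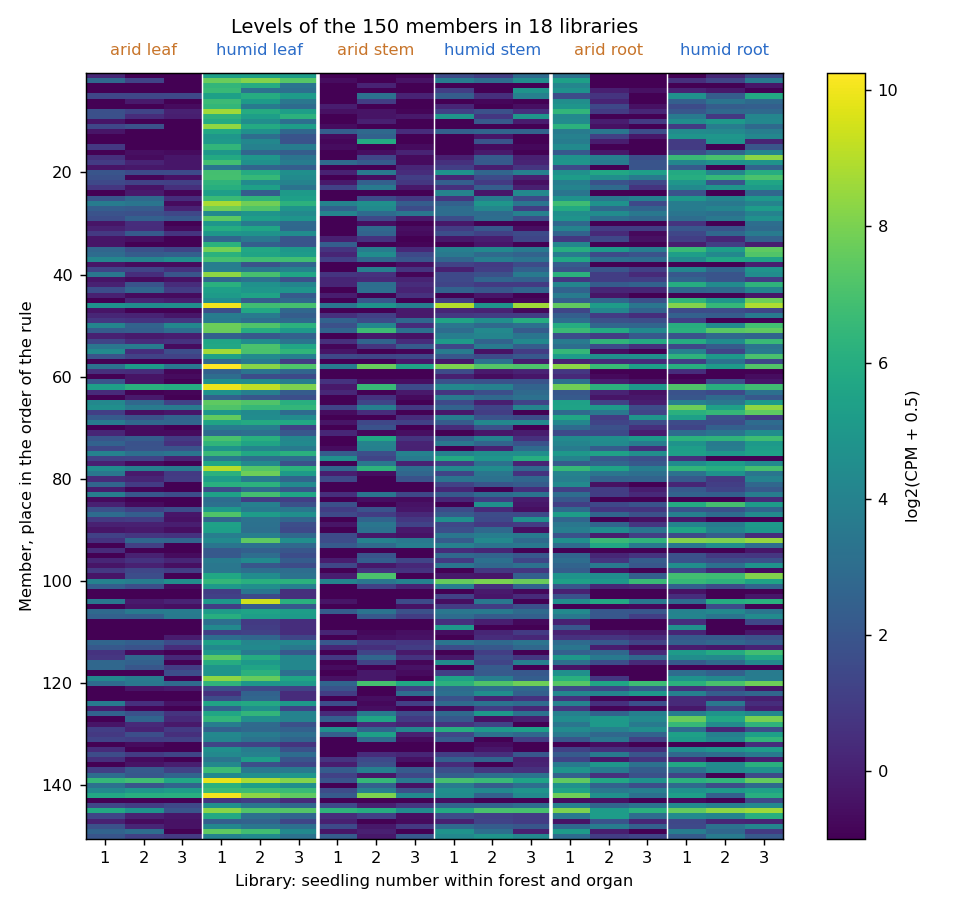
Level of the 150 members (rows, by place in the ranking, place 1 at the top) in the 18 libraries (columns, by organ, with arid left of humid) as log2(CPM + 0.5), from dark for low to bright for high. The humid leaf columns are bright and the arid leaf columns dark, as the rule requires; arid root 1 and arid stem 2 are brighter than the other libraries of their groups.

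For completeness, the fit over all transcripts is given for leaves as a description. In edgeR's quasi-likelihood test the log2 fold change of arid against humid leaf was negative for all 149 members tested, with a median of -4.42 beside 0.04 over all 40897 transcripts. The median was -4.32 with the 12 tested members that had no read in arid leaves set at their bound. None of the 149, and no transcript of the table, had an adjusted p under 0.05 (Benjamini-Hochberg adjustment over all transcripts), and 145 members were lower at an unadjusted p under 0.05, beside 4.03% of all transcripts. The smallest adjusted p was 0.0588. DESeq2 called 82 of the 149 lower (55.0%) beside 0.714% of all transcripts lower. Nothing is read from these counts, since the rule used the same values. The member at place 102, with 119 reads in all, did not pass the filter on low counts.

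**Figure D3:**
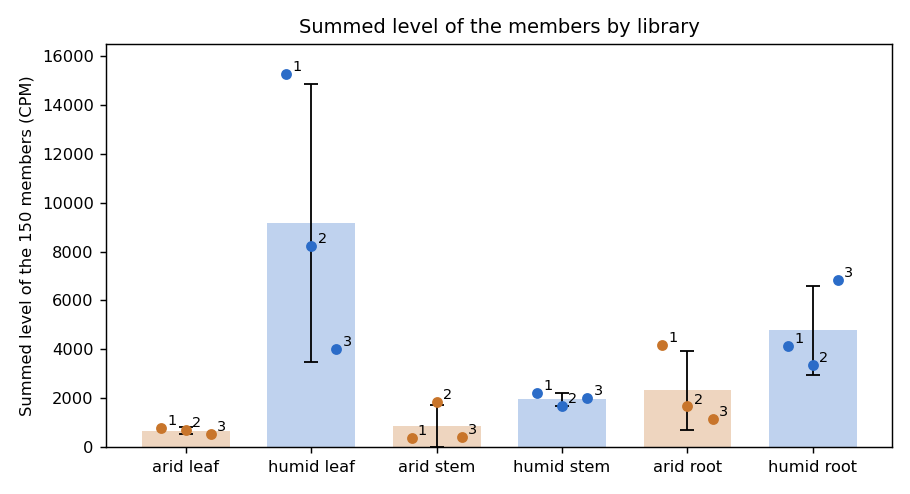
Summed level of the 150 members in each library (vertical axis, CPM) for the 6 groups (horizontal axis, arid left of humid within each organ). Points are libraries with their seedling number, bars are group means and error bars are ± 1 SD (n = 3). The 3 arid leaves lie between 514 and 784 CPM; arid stem 2 and arid root 1 lie far above the other libraries of their groups.

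In stems, the members summed to 354, 1857 and 397 CPM in arid libraries, against 2192, 1665 and 2013 CPM in humid libraries. Arid stem 2 lay within the range of the humid stems, and the other arid stems lay far below it. The mean difference of arid minus humid stems was -1088 CPM, and -1582 CPM without arid stem 2. A score over the members is not tested here, because they were chosen with the results known. The median member mean was 1.26 CPM in arid stems and 3.72 CPM in humid stems.

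All 3 arid stems lay below all 3 humid stems in 49 members (32.7%), beside 22.4% of the transcripts the rule could take, and above them in 1 member beside 3.13%. Without arid stem 2 the first count was 79 (52.7%) beside 33.9%. The scaling of libraries bears on this count: the trimmed mean of M-values (TMM) factors were 0.788 to 0.982 in arid stems and 1.17 to 1.23 in humid stems. After TMM scaling 38 members (25.3%) lay below beside 11.0%, and 1 lay above beside 10.1%. The share of members on the lower side was larger than the background share under each of these settings. Transcripts lower in both stem and root had been removed by the rule from members and background alike.

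The edgeR test called 2 of 149 members lower in arid stems (1.34%, close to the background of 0.807%) and none higher (background 0.575%). For the edgeR and DESeq2 counts, the background is over all transcripts tested and not only those the rule could take. At an unadjusted p under 0.05, 39 members were lower (26.2%, background 9.78%) and 6 higher (4.03%, background 10.4%). The median log2 fold change was -1.09 over the members, beside 0.03 over all transcripts, and 101 members had a negative and 48 a positive value. DESeq2 called 24 lower (16.1%, background 5.4%) and 4 higher (2.69%, background 3.96%). Without arid stem 2, edgeR called 13 of 150 lower (8.67%, background 4.96%) with a median of -2.06. The number called thus depended on arid stem 2, among the members as over all transcripts.

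Both members called in stems had steady values there. Ag_23624, at place 100, had 16.4, 10.5 and 15.5 CPM in arid stems, against 191, 251 and 205 CPM in humid stems. It fell by 3.46 on the log2 scale (SE 0.41, edgeR quasi-likelihood test, adjusted p = 0.00193), and its adjusted p was at most 0.0211 over 12 other settings. It was higher in humid stems than in any other group. In leaves it had 15.6, 13 and 22.8 CPM in the arid forest and 86.5, 68.0 and 71.6 CPM in the humid forest. Its root values overlapped, with 42.3, 31.3 and 99.3 CPM in arid roots, against 92.8, 77.0 and 45.1 CPM in humid roots.

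Ag_11467, at place 52, had 0, 0.334 and 0.240 CPM in arid stems, against 13.7, 17.1 and 9.98 CPM in humid stems. It fell by 5.59 on the log2 scale (SE 0.76, edgeR quasi-likelihood test, adjusted p = 0.00521). This call was lost in the fit of the stem libraries alone (adjusted p = 0.13), and its adjusted p was between 5.61e-14 and 0.13 over 12 other settings. In leaves it had 0.539, 0.382 and 0.476 CPM in the arid forest and 4.94, 3.78 and 5.19 CPM in the humid forest. The values within each of these leaf groups were close to each other, and the groups did not overlap.

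The 2 members with the highest fitted values in stems rested on arid stem 2 alone. Ag_46656, at place 99, had 0.420, 133 and 0 CPM in arid stems, against 0.327, 0.311 and 4.94 CPM in humid stems. Its log2 fold change was 5.0 (SE 1.96, edgeR quasi-likelihood test, adjusted p = 0.172) with arid stem 2 and -2.81 (adjusted p = 0.32) without it, in a range of adjusted p of 0.0759 to 0.465 over 11 other settings. Ag_41044, at place 14, had 0.070, 57.9 and 0 CPM in arid stems, against 0, 3.35 and 0 CPM in humid stems. Its log2 fold change was 4.49 (SE 2.43, edgeR quasi-likelihood test, adjusted p = 0.317) with arid stem 2 and -4.38 (adjusted p = 0.374) without it, where adjusted p over 11 other settings ran from 0.273 to 0.547. Neither was called, and in both the remaining arid stems held almost no reads.

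In roots, the members summed to 4171, 1657 and 1135 CPM in arid libraries, against 4134, 3363 and 6836 CPM in humid libraries. Arid root 1 lay within the humid range and the other arid roots below it. The mean difference of arid minus humid roots was -2457 CPM, and -3382 CPM without arid root 1. The median member mean was 6.48 CPM in arid roots and 9.55 CPM in humid roots.

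All 3 arid roots lay below all 3 humid roots in 28 members (18.7%), beside 8.18% of the transcripts the rule could take, and above them in 5 members (3.33%) beside 12.6%. Without arid root 1 the first count was 80 (53.3%) beside 12.4%, and without humid root 2, the shallowest library, it was 47 (31.3%) beside 14.7%. With all libraries, no member lay below in both stem and root, since the rule had left such transcripts out. Members below in stem could thus enter the root count only once a root library was left out. Part of the rise to 80 and to 47 was therefore set by the rule, under which the background was drawn too. Applied without arid root 1 the rule kept 129 of the 150 members, and without humid root 2 it kept 144. The same limit bears on the other root values given without arid root 1. Of the 150 members, 45 lay below in stem with overlap in root, 28 lay below in root with overlap in stem, and 71 overlapped in both. Another 4 lay below in stem and above in root, 1 lay above in root only and 1 above in stem only.

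The edgeR test called no member in roots in either direction, beside 0.249% of all transcripts lower and 1.37% higher. At an unadjusted p under 0.05, 17 members were lower (11.4%, background 5.55%) and 6 higher (4.03%, background 9.99%). In both directions together this was 23 members, a share near that of all transcripts. DESeq2 called 9 lower (6.04%, background 1.94%) and 3 higher (2.01%, background 3.97%). The median log2 fold change was -0.61 over the members, beside 0.05 over all transcripts, and it was -1.76 without arid root 1. The smallest adjusted p among the members was 0.0535.

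The members with the lowest fitted values in roots were Ag_43925 and Ag_14585. Ag_43925, at place 85, had 1.65, 2.31 and 3.29 CPM in arid roots, against 58.9, 123 and 35.3 CPM in humid roots. Its log2 fold change was -4.80 (SE 1.53, edgeR quasi-likelihood test, adjusted p = 0.13), although the groups did not overlap, and its adjusted p was between 0.0394 and 0.357 over 12 other settings. Ag_14585, at place 5, had 2.54, 1.10 and 0 CPM in arid roots, against 25.5, 4.57 and 55.5 CPM in humid roots. Its log2 fold change was -4.56 (SE 1.46, edgeR quasi-likelihood test, adjusted p = 0.13), with adjusted p between 0.00978 and 0.367 over 12 other settings. In leaves Ag_14585 was even within the arid group, with 2.16, 2.10 and 2.20 CPM in the arid forest and 42.2, 61.7 and 35.9 CPM in the humid forest.

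The members with the highest fitted values in roots rested on arid root 1. Ag_7628, at place 3, had 17.4, 0 and 0 CPM in arid roots, against 0, 0 and 0.302 CPM in humid roots. Its log2 fold change was 5.59 (SE 2.41, edgeR quasi-likelihood test, adjusted p = 0.287) with arid root 1 and -3.38 (adjusted p = 0.748) without it, in a range of adjusted p of 0.166 to 0.748 over 11 other settings. In leaves Ag_7628 had no read in the arid forest and 84.1, 61.6 and 9.96 CPM in the humid forest. Ag_31884, at place 44, had 12.3, 0.274 and 0 CPM in arid roots, against 0, 0 and 0.302 CPM in humid roots (log2 fold change 5.12, SE 1.96, edgeR quasi-likelihood test, adjusted p = 0.211). Without arid root 1 its log2 fold change was 0.63, and its adjusted p was between 0.129 and 0.951 over 11 other settings. Among the humid leaves Ag_7628 was highest in humid leaf 1. Ag_31884 was highest in humid leaf 2, with 34.55, 45.88 and 4.05 CPM in humid leaves 1, 2 and 3.

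**Figure D4:**
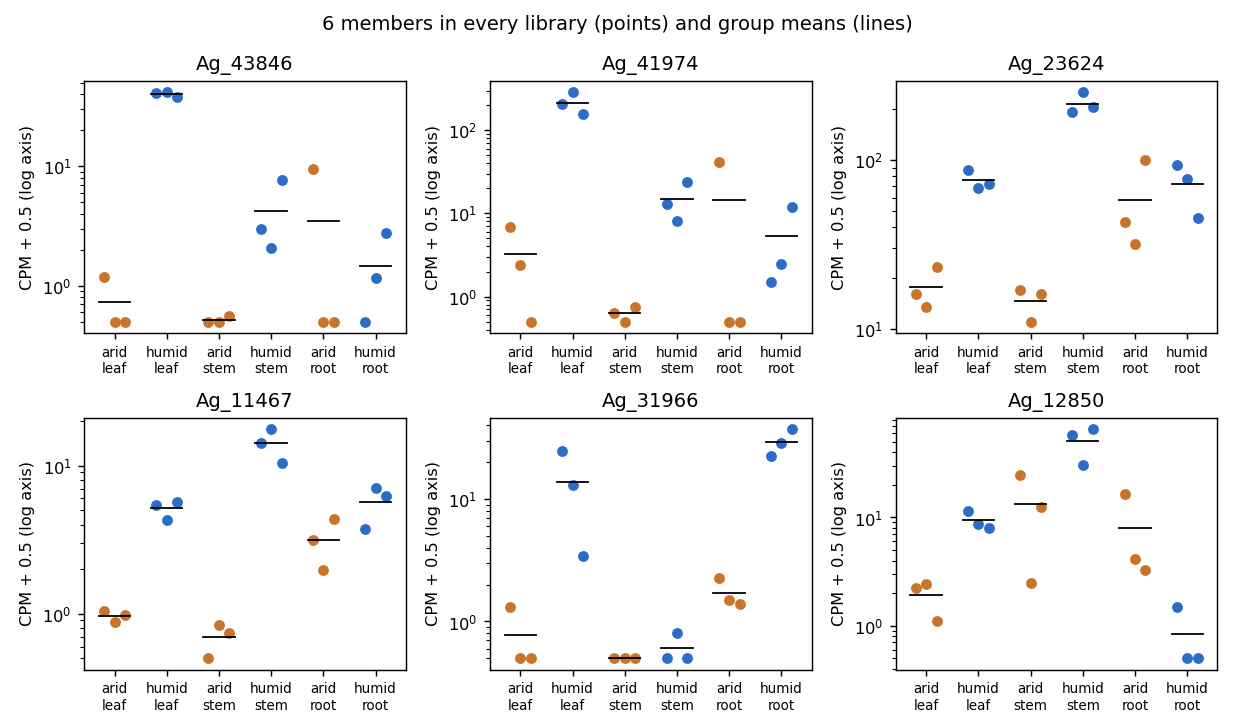
Levels of 6 members in every library (vertical axes, CPM + 0.5, log axis) by group (horizontal axes, arid left of humid within each organ). Points are libraries in the order of seedlings 1 to 3 and lines are group means; Ag_43846 and Ag_41974 share 1 pattern, with arid root 1 the only high arid root, while Ag_23624 and Ag_11467 are highest in humid stems.

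In the humid seedlings, the members differed in the organ where their mean was highest, a grouping made without a test. The highest mean among humid organs was in leaf for 103 members (68.7%), in root for 33 (22%) and in stem for 14 (9.33%). Over the 22997 transcripts the rule could take with at least 1 CPM in humid leaf, these shares were 30.8% for leaf, 26.8% for root and 42.4% for stem. The rule favours a high humid leaf, so the leaf share is in part set by the choice. The 33 members highest in humid root had a median of 9.91 CPM in arid root and 60.7 CPM in humid root, against 0.981 CPM in arid leaf and 18.7 CPM in humid leaf.

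The organ of the highest humid mean can be set beside the organ in which the forests did not overlap. Of the 28 members lower in arid roots without overlap, 21 were highest in humid root, 7 in humid leaf and none in humid stem. Of the 49 members lower in arid stems without overlap, 36 were highest in humid leaf, 10 in humid stem and 3 in humid root, and the leaf share was close to that of all members. A high humid value enters both sides of these counts, so they are a description. The 28 root-lower members had a median mean of 5.78 CPM in arid root and 30.8 CPM in humid root, and of 2.97 CPM in arid stem and 1.85 CPM in humid stem. The 49 stem-lower members had a median mean of 0.660 CPM in arid stem and 5.64 CPM in humid stem, with 4.44 CPM in arid root and 4.61 CPM in humid root.

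Within single seedlings, the leaf lay above the stem of the same plant in 89, 57 and 59 members in arid seedlings 1, 2 and 3, and in 135, 136 and 126 members in humid seedlings 1, 2 and 3. It lay above the root of the same plant in 7, 43 and 37 members in the arid seedlings, and in 124, 114 and 77 members in the humid seedlings. In each arid seedling most members were thus no higher in leaf than in root, and the rule fixes the low arid leaf values behind this.

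A comparison that uses no leaf value and no difference between forests is that of humid stem with humid root. Humid stem and humid root values still entered the choice of members, through the transcripts left out as lower in both stem and root. The calls below are thus not fully independent of that choice. The edgeR test called 21 of 149 members lower in humid stem than in humid root (14.1%, background 2.72%) and 4 higher (2.69%, background 3.75%). The background holds all transcripts tested, also those the rule could not take. The median log2 fold change was -1.61 over the members, beside 0.10 over all transcripts. The 21 members had means with a median of 1.39 CPM in humid stem and 64.2 CPM in humid root, with humid stem means of up to 10.2 CPM, and all 3 humid stems lay below all 3 humid roots in each of them. Of the 21, 17 were highest in humid root and the other 4 in humid leaf. Their log2 fold changes ran from -8.09 to -2.47.

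With the seedling as a block, edgeR called 31 members lower (20.8%, background 4.32%) and 5 higher (3.36%, background 5.11%). DESeq2 called 44 lower (29.5%, background 5.96%) and 9 higher (6.04%, background 7.49%). Leaving out single libraries gave 11 to 20 calls in both directions together, and the lowest count came without humid stem 3. Calls over all transcripts fell as well, from 2649 of 40897 with all libraries to between 672 and 1923. Without humid stem 3 they were 843 of 42441. The direction of the median was negative in each of these fits.

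Ag_23459, at place 45, had 1.64, 0 and 0.099 CPM in humid stems, against 79.8, 29.7 and 219 CPM in humid roots. It was lower in humid stem by a log2 fold change of -8.09 (SE 1.74, edgeR quasi-likelihood test, adjusted p = 0.0135). Its adjusted p was between 0.000531 and 0.071 over 12 other settings, and the call was lost without humid stem 2, humid stem 3 or humid root 3. Arid roots held far less of Ag_23459 than humid roots, with 4.83, 6.20 and 2.85 CPM.

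Ag_31966, at place 133, had 0, 0.311 and 0 CPM in humid stems, against 22, 28.1 and 36.8 CPM in humid roots. Its log2 fold change was -7.88 (SE 1.37, edgeR quasi-likelihood test, adjusted p = 0.00616), and its adjusted p was at most 0.0329 over 12 other settings. No read of Ag_31966 was found in any arid stem. In arid roots it had 1.78, 0.988 and 0.877 CPM, so the arid and humid roots did not overlap (log2 fold change -4.53, SE 1.11, edgeR quasi-likelihood test, adjusted p = 0.0564).

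The 4 members higher in humid stem did not overlap with humid root either, and all 4 were highest in humid stem of the 3 humid organs. Ag_12850, at place 76, had 57.4, 29.7 and 64.9 CPM in humid stems, against 0.995, 0 and 0 CPM in humid roots (log2 fold change 6.68, SE 1.13, edgeR quasi-likelihood test, adjusted p = 0.00497). Ag_44471, at place 49, had 47.3, 23.1 and 63.6 CPM in humid stems, against 1.66, 0 and 0 CPM in humid roots (log2 fold change 5.85, SE 0.93, edgeR quasi-likelihood test, adjusted p = 0.00397). The 2 transcripts had similar values in these 6 libraries. Both were nearly absent from humid roots and present in all arid roots, with 16, 3.62 and 2.74 CPM for Ag_12850 and 7.62, 2.96 and 2.74 CPM for Ag_44471.

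**Figure D5:**
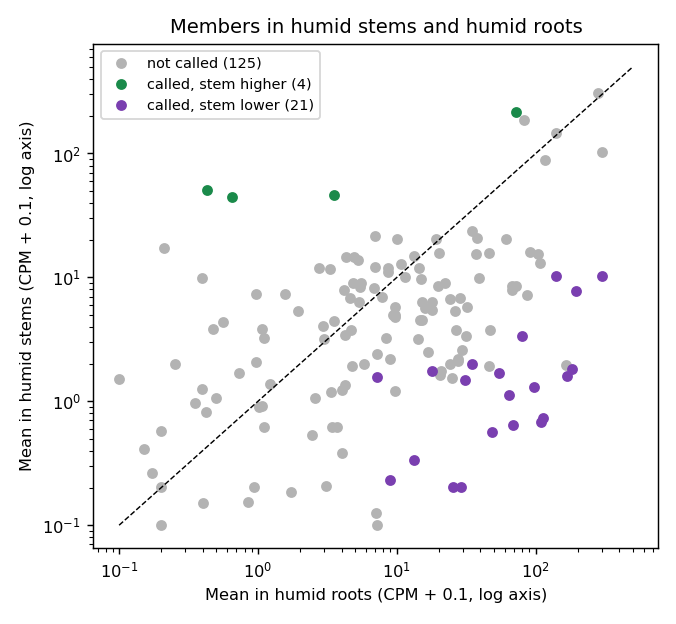
Mean level of each member in humid stems (vertical axis, CPM + 0.1, log axis) against humid roots (horizontal axis, CPM + 0.1, log axis). Coloured points are the 21 members lower and the 4 members higher in humid stem by the edgeR test, grey points are the others, including 1 member that was not tested, and the dashed line marks equal levels; the 21 lie below the line.

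The same comparison in arid seedlings gave fewer calls. Arid stem and arid root values also entered the choice of members, since the rule left out transcripts lower in both stem and root. A member whose arid stems all lay below all humid stems could stay only where an arid root reached the humid roots. The arid counts and medians are thus not independent of that choice, and the background holds transcripts the rule could not take. The edgeR test called 7 of 149 members lower in arid stem than in arid root (4.70%, background 0.892%) and none higher (background 0.58%), where no member was higher at an unadjusted p under 0.05 and DESeq2 also called none higher (background 4.3%). The 7 had means with a median of 1.34 CPM in arid stem and 27.7 CPM in arid root, and 2 of them were also called lower in humid stem than in humid root. The median log2 fold change was -1.91 over the members, beside 0.03 over all transcripts. Whether the difference between stem and root itself differed between forests was not tested.

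These counts and medians moved with single libraries. Without arid root 1 the median was -0.295 and edgeR called 3 of 150 lower (2%, background 0.466%). These 150 members had been chosen with arid root 1, and the rule applied without it kept 129 of them. The choice of members thus bears on this shift as well. Without arid stem 2 the median was -3.13 and edgeR called 37 of 150 lower (24.7%, background 6.25%). Leaving out arid root 2 or arid root 3 left 1 call each, arid stem 3 left 2 and arid stem 1 left 3. In the same order, calls over all transcripts were 30 of 42614, 37 of 43317, 76 of 42634 and 228 of 42512. With all libraries they were 602 of 40897, so the loss was not particular to the members. With the seedling as a block, 11 members were called lower (7.38%, background 1.6%), and DESeq2 called 34 (22.8%, background 4.79%). A fit of the arid stems and roots alone called none of 103 members tested and no transcript of the table.

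The members did not all share 1 pattern over the 18 libraries. On the log2(CPM + 0.5) scale the correlation between pairs of members had a median of 0.58, with quartiles of 0.41 and 0.72, and 470 of the pairs were below 0. These values describe transcripts that share the leaf difference by choice and libraries that share depth. Only 26 members had a partner among the members at r of 0.95 or more.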

How the data were processed

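RNA of 18 libraries was prepared from 0.5 µg of total RNA and sequenced as read pairs, per the labels' protocols. The authors deposited raw read counts per transcript, without normalization, as 1 table for the series and as single-library files with equal values. Bowtie 0.12.2 and edgeR are named per the submitters' processing notes, and the reference transcriptome is not given in the sources used here. Levels in CPM were computed from these counts.

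Differential expression was tested with edgeR 4.0.16 (quasi-likelihood test, TMM scaling, R 4.3.3) on the counts as deposited. Filtering by group (at least 10 counts, at least 15 in total) left 40897 transcripts. All 18 libraries entered 1 model with a mean per group and 12 residual degrees of freedom. P-values were adjusted by the Benjamini-Hochberg method over all transcripts and called under 0.05. DESeq2 1.42.0, other scalings, no filter, other fits and leaving out each library were the alternatives. The edgeR procedure was run on simulated counts with planted changes and 1 setting of spread for all transcripts. The spread of the members was not simulated, so this checks the code and not the calls among them.

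The members and lists were chosen with earlier results of these data known. Identifiers were printed by rule: the first 2 members, and the 2 highest and 2 lowest fold changes per comparison among members called, or among all members tested where none was called. The 2 members most abundant in humid leaves are given by place. The design held an exact permutation test of the summed level, which was not made because the members were chosen on these data. The design text describes organs of the same seedlings. On log2 values, deviations of stem and root from their group means correlated at 0.139 to 0.370 within seedlings and at -0.344 to 0.051 between seedlings, so the seedling served as a block in comparisons of stem with root. Depth was 3.07 to 23.7 M reads. Closely similar transcripts may share reads, which was not assessed here.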

Additional observations from a re-analysis of the deposited data

Results flagged for a closer look

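In 6 members all arid leaves lay below all humid leaves, while in another organ the arid side was the higher one without overlap. The low leaf side is fixed by the choice of members, and the difference between organs was not tested. In stems this was the member at place 137, with 4.41, 14.2 and 4.01 CPM in arid stems, against 2.78, 1.25 and 0.988 CPM in humid stems (log2 fold change 2.69, edgeR adjusted p = 0.135).

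In roots it was Ag_12850 at place 76 (log2 fold change 4.14, edgeR adjusted p = 0.0608) and Ag_44471 at place 49 (2.75, edgeR adjusted p = 0.118), both nearly absent from humid roots. The other 3 were at places 129, 121 and 122. Place 129 had 20.8, 14.7 and 22.9 CPM in arid roots, against 7.08, 0.653 and 2.56 CPM in humid roots (log2 fold change 2.46, edgeR adjusted p = 0.0535). Place 121 had 2.41, 2.03 and 3.84 CPM in arid roots, against 0.995, 1.31 and 0.302 CPM in humid roots (log2 fold change 1.77, edgeR adjusted p = 0.423). Place 122 had 18.3, 17.1 and 30.6 CPM in arid roots, against 14.8, 4.57 and 6.03 CPM in humid roots (log2 fold change 1.40, edgeR adjusted p = 0.593), and no read in any arid leaf. None passed the threshold of 0.05.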

How the results depend on the processing

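Of the 150 members the rule kept 118 with a pseudocount of 0.1 CPM and 118 with 2 CPM, 139 after TMM scaling, and 92 when means replaced the lowest and highest library. Leaving out single libraries kept 89 (without arid leaf 1) to 150 members, with 98 without humid leaf 3 and 129 without arid root 1. Leaving out 1 library (chosen after seeing the data for stems and roots) gave 50 to 79 members below all humid stems and 30 to 80 below all humid roots. The 79 without arid stem 2 (52.7%) stood beside 33.9% of the transcripts the rule could take. In roots the 80 without arid root 1 (53.3%) stood beside 12.4%, and the count without humid root 2 was 47 (31.3%) beside 14.7%. No background share is given for the other libraries.

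DESeq2 called 82 members in leaf, 28 in stem, 12 in root, 53 in humid stem against humid root and 34 in arid stem against arid root. Fits of the groups compared alone tested fewer transcripts. They called 1 of 149 members in leaf (0.671%, beside 0.00295% of all tested), 1 of 101 in stem (0.99%, beside 0.0639%) and 3 of 122 in root (2.46%, beside 0.505%). They called 58 of 128 in humid stem against humid root (45.3%, beside 14.5%) and 0 of 103 in arid stem against arid root, where no transcript was called. Without a filter on low counts the last comparison gave 4, beside 357 of 47821 over all transcripts. Leaving out 1 library gave 0 to 3 in leaf, 2 to 13 in stem and 0 to 2 in root. It gave 11 to 20 in humid stem against humid root and 1 to 37 in arid stem against arid root. Calls over all transcripts moved too, with 0 to 4 in leaf, 32 to 3611 in stem and 1 to 1110 in root. They were 672 to 1923 in humid stem against humid root and 30 to 4053 in arid stem against arid root. The cause was not tested. Under a replicate block by seedling, the calls were 36 for humid and 11 for arid stem against root, beside 3858 and 1172 of all 40897 transcripts. Replicate numbers mark different seedlings in the 2 forests and pair nothing, and libraries did not all correlate best with their own number. With the number as a block 1 member was called in leaf, 3 in stem and 5 in root. Over all 40897 transcripts these fits called 1, 530 and 662.

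Among named transcripts, 3 reversed: without arid stem 2 Ag_46656 had a log2 fold change of -2.81 and Ag_41044 of -4.38 in stem, and without arid root 1 Ag_7628 had -3.38 in root. Leaving out 1 library gave them -2.81 to 7.58, -4.38 to 10.94 and -3.38 to 8.99. Depth limits low members: a level under 0.127 to 0.979 CPM could not be told from 0.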
